A study of Mus musculus with 82 samples.

Results

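Tle1, Tle2, Tle3, Tle4, Sin3a and Sin3b, the 6 mouse genes of the Groucho and Sin3 corepressors described here among 21883 coding genes, were chosen by the peak widths measured in the data used below, in which broad peaks lie at Tle3 and Sin3a. Peaks belonged to a gene when their midpoint fell inside the gene or within 50 kb of it on mm10. By this rule, 34 of 30129 EoGFP peaks, 26 of 27588 BraGFP peaks, 37 of 38193 EoV5 peaks and 34 of 36203 EoVP16 peaks lay near the 6 genes. Because widths and positions selected the genes, the counts and widths below are descriptions and carry no test.

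The series holds 82 mouse samples (66 RNA-seq, 12 ChIP-seq and 4 ATAC-seq), of which the peak lists of 4 ChIP-seq constructs are used here. The cells of these 4 constructs derived from the A2lox.Cre embryonic stem cell line with both Eomes and Brachyury knocked out (dKO). Each line carried 1 doxycycline-inducible construct: Eomes with a GFP tag (EoGFP), Brachyury with a GFP tag (BraGFP), Eomes with a V5 tag (EoV5), or Eomes joined to the VP16 activation domain (EoVP16). The cells grew as embryoid bodies with activin A (ActA) at 30 ng/ml and doxycycline, and were taken on day 5. Chromatin was fixed with DSG and formaldehyde, which also link proteins to each other, so a peak need not mark a protein's own contact with DNA. It was recovered with an antibody to GFP from the EoGFP and BraGFP lines and with an antibody to V5 from the EoV5 and EoVP16 lines, so antibody and construct cannot be told apart between these pairs. Each protein came from an induced transgene in cells that lack both factors, and its level was not measured here. Whether each line was 1 clone is not given in the sources used here. The files hold peaks and no expression values, so the cells were not checked against marker genes.

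EoGFP and BraGFP each had 1 list for 2 libraries, and EoV5 and EoVP16 each had 1 list from 1 library. There is therefore no replicate value for any peak, and differences between lists have no replicate check. The read depth is unknown from these files. Median peak width was 871 bp in EoGFP, 587 bp in BraGFP, 820 bp in EoV5 and 793 bp in EoVP16. Widths and counts depend on depth and threshold, so each was ranked within its own list. Pileup, the number of fragments stacked over the summit of a peak, was given for EoV5 and EoVP16 and had medians of 99 and 54. Its intervals below are exact 95% Poisson intervals and cover counting error only, since the fragments are not known to be independent molecules.

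Groucho proteins, called TLE in mammals, do not bind DNA themselves. They are brought to genes by partner transcription factors, among them the Hes, Tcf and Lef, Runx and Engrailed families, and repress there together with histone deacetylases. Tle1, Tle2, Tle3 and Tle4 encode full-length Groucho proteins. Sin3a and Sin3b encode the large scaffold proteins of the Sin3 complex, which holds histone deacetylases together with their partners. Eomes and Brachyury, both of the T-box family, act in the primitive streak, from which mesoderm and definitive endoderm arise.

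The promoter sequences are shown first, for the starts where wide peaks lay and, as a contrast, for Sin3b, whose start lay under no peak of any list. They are the 250 bases before each RefSeq transcription start, 5′ to 3′ on the gene's own strand, from a RefSeq table of build GRCm38.p6. Capitals mark the T-box half-site GGTGTG, searched on both strands, and a sequence without capitals does not hold these letters.
Tle3 (chr9:61372116-61372365, plus strand): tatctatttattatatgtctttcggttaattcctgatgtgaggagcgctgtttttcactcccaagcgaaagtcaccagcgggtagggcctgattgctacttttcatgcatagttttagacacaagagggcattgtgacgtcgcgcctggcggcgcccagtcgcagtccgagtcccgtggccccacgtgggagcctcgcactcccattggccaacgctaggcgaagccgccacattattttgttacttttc
Sin3a, outer start (chr9:57071790-57072039, plus strand): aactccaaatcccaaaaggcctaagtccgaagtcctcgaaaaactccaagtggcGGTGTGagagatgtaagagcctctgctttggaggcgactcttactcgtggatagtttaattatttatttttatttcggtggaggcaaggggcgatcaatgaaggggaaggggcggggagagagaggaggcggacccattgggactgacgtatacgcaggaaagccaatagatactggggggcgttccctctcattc
Sin3a, inner start (chr9:57076126-57076375, plus strand): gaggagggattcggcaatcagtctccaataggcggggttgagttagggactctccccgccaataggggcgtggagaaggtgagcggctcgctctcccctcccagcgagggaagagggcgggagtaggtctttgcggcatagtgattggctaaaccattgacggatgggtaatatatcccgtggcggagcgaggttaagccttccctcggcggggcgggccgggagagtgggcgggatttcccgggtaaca
Tle1 (chr4:72200894-72201143, minus strand): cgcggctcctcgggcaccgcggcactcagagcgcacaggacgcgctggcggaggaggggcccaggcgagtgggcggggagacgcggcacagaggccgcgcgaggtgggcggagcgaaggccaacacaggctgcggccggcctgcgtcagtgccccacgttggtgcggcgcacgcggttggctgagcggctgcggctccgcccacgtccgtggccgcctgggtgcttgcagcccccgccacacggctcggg
Sin3b (chr8:72723020-72723269, plus strand): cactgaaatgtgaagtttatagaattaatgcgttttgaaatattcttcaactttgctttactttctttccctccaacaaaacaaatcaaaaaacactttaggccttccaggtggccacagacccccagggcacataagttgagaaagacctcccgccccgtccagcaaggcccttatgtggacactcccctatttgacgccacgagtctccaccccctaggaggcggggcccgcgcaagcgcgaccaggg

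The 6 genes had 8 RefSeq starts in this table, with 2 each at Tle4 and Sin3a. The T-box motif AGGTGTGA, which contains the half-site GGTGTG, was in 0 of the 8 promoter windows and in 0.997% of all 21262 windows of the same length. The half-site was in 1 of 8, at the outer Sin3a start, where it begins 196 bases before the start, and in 15.8% of all windows. The Tle3 window, which lies inside the widest peak of the EoGFP list, holds neither. These letters are absent from the windows only, and the peaks reach several kilobases further.

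The windows differed in composition. CpG dinucleotides numbered 35 at Tle1 and 35 at the inner Tle4 start, 24 at the outer Tle4 start, 21 at Tle2, 19 at the inner and 12 at the outer Sin3a start, 17 at Tle3 and 10 at Sin3b, against a median of 10 over all windows. G and C made up 77.2% of the Tle1 window, a content reached by 3.33% of all windows, and 52.4% of the Tle3 window, which 60.9% reached. The starts under the widest peaks were thus not the richest in CpG. Across all windows, those whose start lay under an EoGFP peak had a median of 16 CpG and those without had 4. Tle2, at 21, had more CpG than that median and no peak over its start.

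At least 1 peak lay within 50 kb of 5 of the 6 genes in EoGFP, 5 in BraGFP, 6 in EoV5 and 6 in EoVP16. The same held for 81.1% of all coding genes in EoGFP, 76.5% in BraGFP, 83% in EoV5 and 84.2% in EoVP16. Having a peak in the window was thus common in the genome and is no result about these genes. The number of peaks set the genes further apart.

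Tle4 had 11 EoGFP, 5 BraGFP, 13 EoV5 and 9 EoVP16 peaks. As many or more were found at 1.15% of coding genes in EoGFP, 14.7% in BraGFP, 0.955% in EoV5 and 7.04% in EoVP16. Tle4 is also the longest of the 6 genes, at 150.1 kb, and so had the longest window. Per 100 kb of window it had 4.40 EoGFP peaks, fewer than Tle2 with 6.79 and Tle3 with 6.16.

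Tle3 had 9 EoGFP, 8 BraGFP, 9 EoV5 and 6 EoVP16 peaks, counts that 3.20% of coding genes reached in EoGFP, 3.05% in BraGFP, 4.29% in EoV5 and 24.8% in EoVP16. Tle2 had 8, 2, 6 and 9, and Sin3a had 4, 8, 4 and 6, in the same order of lists. Sin3a had its highest count in BraGFP. Tle1 had 2, 3, 3 and 2, and Sin3b had 0, 0, 2 and 2. The median coding gene had 3, 2, 3 and 3.

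**Figure D1:**
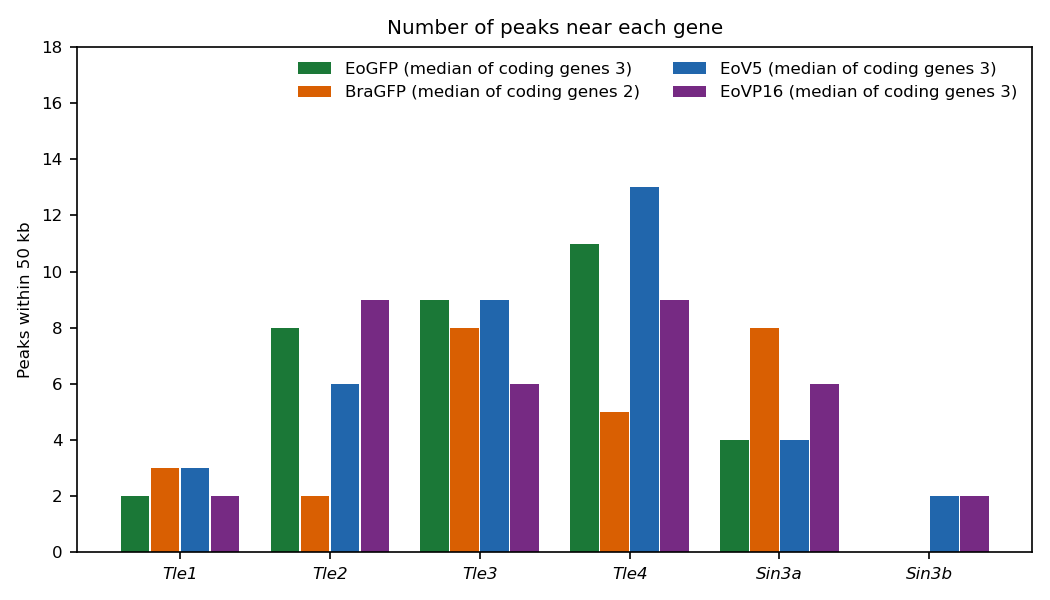
Bars give the number of peaks with a midpoint within 50 kb of each gene (y axis) for the 6 genes (x axis), with 1 bar per peak list and the median over all coding genes in the key. Tle4 has the highest bar, 13 in EoV5, and Sin3b has bars in EoV5 and EoVP16 only.

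A peak covered a RefSeq start of 4 of the 6 genes in every list, and these were the same genes each time: Tle1, Tle3, Tle4 and Sin3a. Among the 17491 coding genes with a start in the table, a start was covered in 39.6% by EoGFP, 20.9% by BraGFP, 31.4% by EoV5 and 51.7% by EoVP16. A start was covered in all 4 lists in 14.4% of them. Tle2 and Sin3b had no peak over their start in any list.

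Broad peaks, here the widest 1% of a list, lay near Tle3 and Sin3a in EoGFP and near Tle1, Tle3 and Sin3a in BraGFP, EoV5 and EoVP16. That is 2, 3, 3 and 3 of the 6 genes, where 3.87%, 3.01%, 4.3% and 4.14% of all coding genes had such a peak. In all 4 lists it held for 2 of the 6, Tle3 and Sin3a, and for 0.548% of coding genes, or 120 of them. The genes were selected on this property, so nothing is read from the difference. The narrowest broad peak measured 2702 bp in EoGFP, 2217 bp in BraGFP, 3223 bp in EoV5 and 2989 bp in EoVP16. Just inside these limits lay Tle1 with 3218 bp in EoVP16 and 3441 bp in EoV5, and just outside lay Tle4 with 2956 bp in EoV5.

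**Figure D2:**
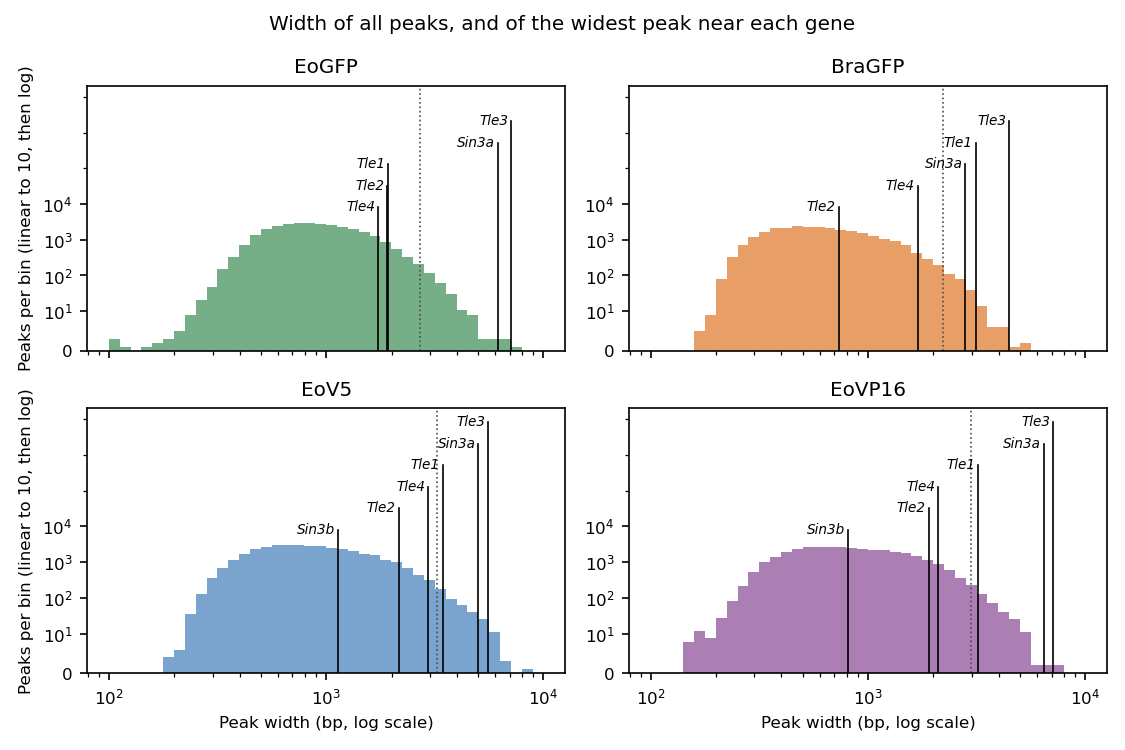
Histograms give the number of peaks (y axis, linear to 10 and then log) by peak width in bp (x axis, log scale) in each list, with a dotted line at the narrowest of the widest 1% and a black line at the widest peak near each gene. The lines of Tle3 and Sin3a stand right of the dotted line in all 4 lists, and those of Tle2, Tle4 and Sin3b stand left of it. Sin3b has a line in EoV5 and EoVP16 only, as it had no peak in EoGFP and BraGFP.

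Among the Groucho genes, Tle3 (chr9:61372326-61418497, plus strand) carried the widest peaks. No other coding gene lies within 50 kb of it. The peak over its start measured 7112 bp in EoGFP, 4477 bp in BraGFP, 5577 bp in EoV5 and 7127 bp in EoVP16. These widths ranked 1 in EoGFP, 3 in BraGFP, 17 in EoV5 and 1 in EoVP16, where a peak at Pcdh7 had the same width. The narrowest of a gene's 4 widths was 4477 bp at Tle3, and no other coding gene reached that value.

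The 4 peaks did not share the same edges. With the start at 0 and upstream negative, the EoGFP peak ran from -4.66 to 2.45 kb and the EoVP16 peak from -4.64 to 2.48 kb. The EoV5 peak began at -4.71 kb but ended at 0.863 kb. The BraGFP peak began at -2.07 kb and ended at 2.41 kb, and 2 narrower BraGFP peaks of 698 and 630 bp lay further upstream, under the EoGFP peak. Together the lists covered 7195 bp around the start, of which EoGFP peaks held 98.8%, BraGFP peaks 80.7%, EoV5 peaks 77.5% and EoVP16 peaks 99.1%.

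In EoV5 and EoVP16, the lists that give summits, those of the wide Tle3 peaks lay upstream of the start and not over it. The EoV5 summit was at -4.25 kb, with a pileup of 271 (95% interval 239.7 to 305) and a fold enrichment of 38.8 over the caller's background. The EoVP16 summit was at -3.64 kb, with a pileup of 85 (67.9 to 105) and a fold of 14.4. These pileups stood in the top 10.0% of EoV5 and the top 16.4% of EoVP16, so the peaks were more extreme in width than in height. In EoV5, 82.9% of the widest 1% of peaks were no taller than the one at Tle3, and in EoVP16 52.5% were.

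**Figure D3:**
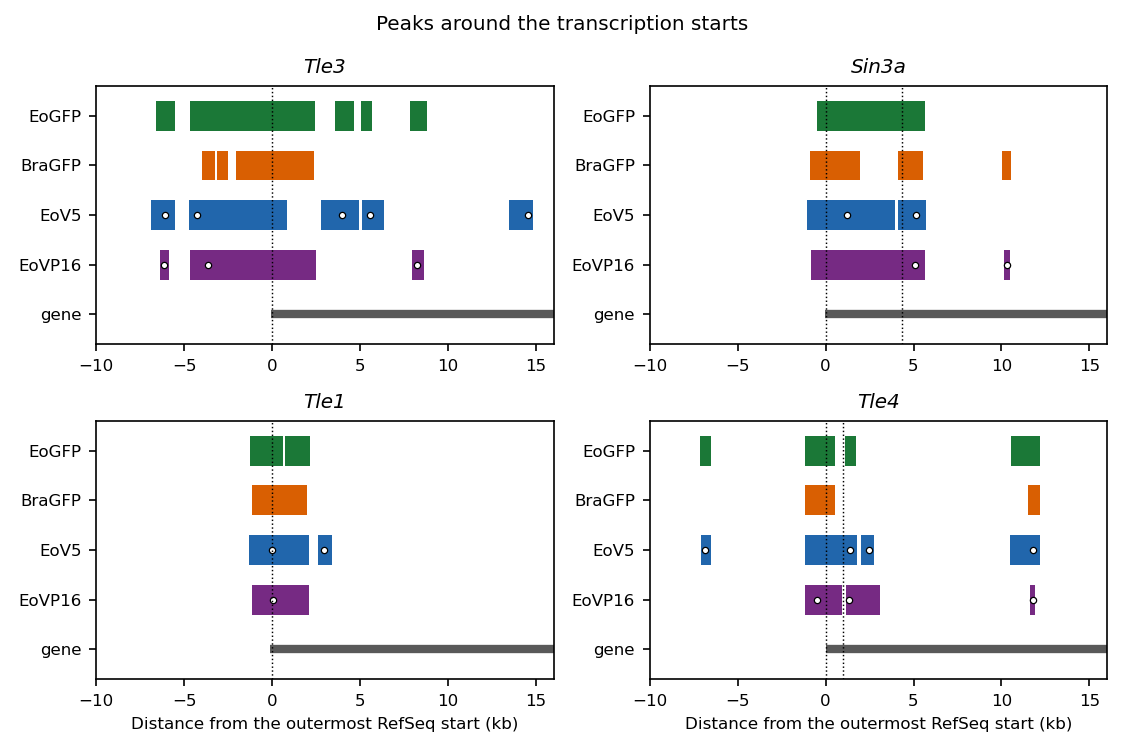
Bars show peaks around the starts of 4 genes against the distance from the outermost RefSeq start in kb (x axis, direction of transcription to the right), 1 row per list; dotted lines mark starts, grey bars the gene, and white points the summits where the list gives one. The EoGFP and EoVP16 bars at Tle3 run from about -4.66 and -4.64 kb to 2.45 and 2.48 kb, and at Sin3a they span both starts.

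Outside its start, Tle3 had further peaks on both sides. One at about -32.8 kb and one at about 63.1 kb, 16.9 kb beyond the 3′ end of the gene, were present in all 4 lists. The upstream one was 516 bp wide in EoGFP and 471 bp in BraGFP, with a pileup of 169 in EoV5 and 93 in EoVP16. Peaks near -11.0 and -6.08 kb were present in the 3 Eomes lists and had no overlapping BraGFP peak. Over whole lists, BraGFP peaks overlapped 27.1% of EoGFP, 20.9% of EoV5 and 25.7% of EoVP16 peaks. Inside the gene, EoV5 had a peak of 2175 bp at 3.87 kb with a pileup of 280, the tallest EoV5 peak near Tle3. It overlapped an EoGFP peak, with no EoVP16 or BraGFP peak there. Conversely, a peak near 8.3 kb was called in EoGFP and EoVP16 and not in EoV5. Among all peaks, EoVP16 peaks overlapped 53.1% of EoV5 peaks. EoV5 peaks overlapped 79.6% of all EoGFP and 56.9% of all EoVP16 peaks. Of the 8 BraGFP peaks near Tle3, 3 overlapped none of the other lists, at -36.0, 19.9 and 81.3 kb. Over the whole BraGFP list, 60.0% of peaks overlapped none of the others.

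Tle1 (chr4:72109945-72200989, minus strand) had 2 or 3 peaks in each list, of which the widest lay over its start. The peak over the start measured 3129 bp in BraGFP (rank 31), 3441 bp in EoV5 (rank 276) and 3218 bp in EoVP16 (rank 263). In EoGFP the same stretch was called as 2 neighbouring peaks of 1931 and 1407 bp. These covered 95.5% of the 3441 bp region, against 90.9% in BraGFP, 100% in EoV5 and 93.5% in EoVP16, so Tle1 missed the widest 1% of EoGFP while most of its start region lay under EoGFP peaks.

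The Tle1 summits lay at the start itself, 0.010 kb inside it in EoV5 and 0.026 kb inside it in EoVP16. The pileup was 259 (228 to 293) in EoV5 with a fold of 37.1, and 119 (98.6 to 142) in EoVP16 with a fold of 20.1, in the top 10.9% and top 6.17% of the lists. This was the tallest Tle1 peak in both lists. Beyond the start, a small peak 24.8 kb inside the gene was shared by EoV5 and EoVP16, with pileups of 67 and 44. BraGFP had 2 peaks that overlapped no other list, at 69.2 and -11.0 kb, where 60.0% of all BraGFP peaks overlapped none.

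**Figure D4:**
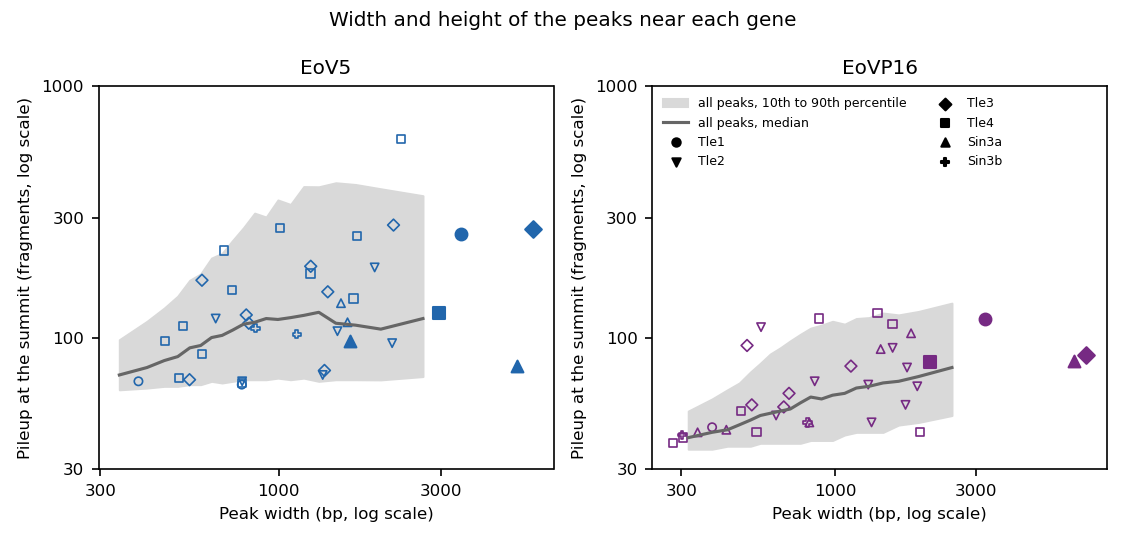
Points give the pileup at the summit in fragments (y axis, log scale) against peak width in bp (x axis, log scale) for the peaks near each gene in EoV5 and EoVP16; large filled points are peaks over the gene's own start, open points are the rest, and the grey line and band give the median and the 10th to 90th percentile of all peaks in 20 classes of width. Tle3 and Sin3a stand at the far right of both panels, with Sin3a at a pileup of 77 in EoV5 and 81 in EoVP16.

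Tle4 (chr19:14448072-14598183, minus strand) had many peaks of ordinary width. The peak over its outer start measured 1732 bp in EoGFP, 1691 bp in BraGFP, 2956 bp in EoV5 and 2102 bp in EoVP16. The inner start lies 970 bp further in and was covered in EoV5 only. In EoGFP and EoVP16 it fell between 2 peaks, and in BraGFP no peak reached it. The EoVP16 summit was at -0.462 kb from the outer start and the EoV5 summit at 1.41 kb, beyond the inner start, with pileups of 80 and 125.

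The tallest Tle4 peak in EoV5 was not at the promoter. It lay 22.6 kb beyond the 3′ end of the gene (chr19:14424328-14426615), with a pileup of 615 (567 to 666) and a fold of 87.9, in the top 1.85% of the list and the tallest EoV5 peak near any of the 6 genes. EoGFP and EoVP16 had peaks there too, the latter with a pileup of 113 in the top 7.20%. BraGFP had none at this site, and over the whole EoV5 list 20.9% of peaks overlapped a BraGFP peak. A second site beyond the 3′ end, 11.8 kb away, was called in all 4 lists, with a pileup of 180 in EoV5 and 125 in EoVP16.

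A group of Eomes peaks lay deep inside Tle4, between 59.2 and 98.8 kb from the outer start. The tallest in EoV5 was at 95.5 kb (chr19:14502185-14503194), with a pileup of 273 (242 to 307), and EoGFP and EoVP16 had it too, the latter at 119. BraGFP peaks overlapped none of this group, and the nearest BraGFP peak, at 57.2 kb, overlapped no other list. Both were common over whole lists. BraGFP peaks overlapped 27.1% of all EoGFP, 20.9% of all EoV5 and 25.7% of all EoVP16 peaks, and 60.0% of BraGFP peaks overlapped no other list. Nearer the start, a peak at about 11.4 kb was called in all 4 lists, with a pileup of 254 in EoV5 and 38 in EoVP16, a difference in rank from the top 11.2% to the top 88.0%.

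**Figure D5:**
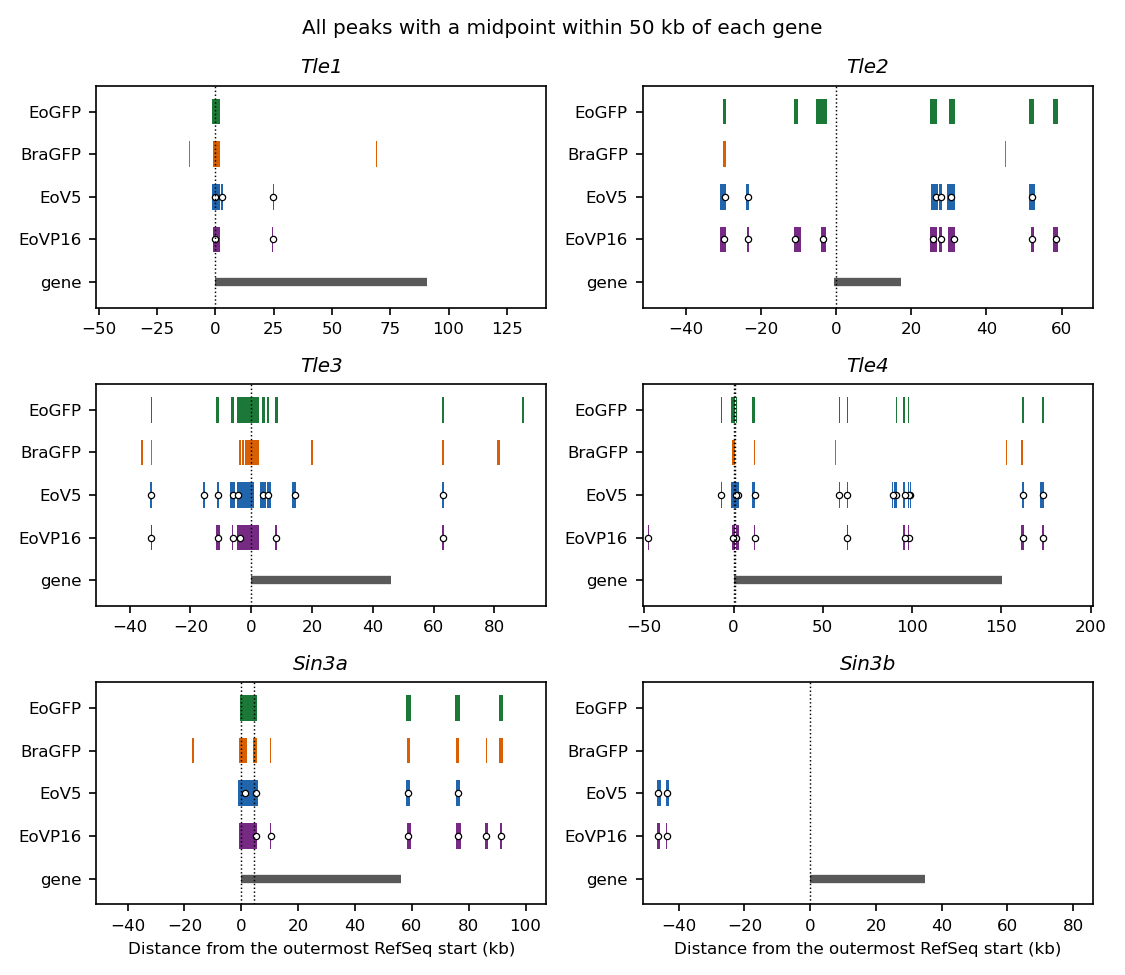
Bars show every peak with a midpoint within 50 kb of each gene against the distance from the outermost RefSeq start in kb (x axis, direction of transcription to the right, scale different in each panel), 1 row per list, with summits as white points, the gene as a grey bar and starts as dotted lines. Tle4 shows Eomes peaks between 59.2 and 98.8 kb with no overlapping BraGFP peak, and Tle2 and Sin3b show no peak over the gene. Over whole lists, BraGFP peaks overlapped 27.1% of EoGFP, 20.9% of EoV5 and 25.7% of EoVP16 peaks.

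Tle2 (chr10:81574739-81592581, plus strand) had peaks around it and none inside it. The nearest midpoint was 2.43 kb from the gene in EoGFP, 2.75 kb in EoVP16, 8.86 kb in EoV5 and 27.8 kb in BraGFP. The window holds 5 other coding genes, Gna11, Tle5, Tle6, Sirt6 and Ankrd24, among them the Groucho relatives Tle5, a short protein that lacks the WD repeats, and Tle6, a divergent family member of the oocyte. Of the 8 EoGFP peaks, 3 lay over starts of these neighbours, at Tle6, Sirt6 and Ankrd24. Tle5 had no start in the promoter table, so cover of its start could not be scored. An EoGFP peak of 1220 bp and an EoVP16 peak of 1733 bp overlapped the Tle5 gene. The peak over Tle6 measured 1916 bp in EoGFP, 1915 bp in EoV5 and 1754 bp in EoVP16, with pileups of 190 and 76, and had no overlapping BraGFP peak. It was the tallest EoV5 peak near Tle2. Over whole lists, BraGFP peaks overlapped 27.1% of EoGFP, 20.9% of EoV5 and 25.7% of EoVP16 peaks. Only 1 site in the window was called in all 4 lists, at about -29.7 kb, next to the start of Gna11, which the EoV5 and EoVP16 peaks covered.

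Of the Sin3 genes, Sin3a (chr9:57071991-57128368, plus strand) also carried a peak of the widest 1% in every list, narrower than the one at Tle3 in each. Its 2 starts lie 4336 bp apart. In EoGFP a peak of 6148 bp (rank 5) and in EoVP16 a peak of 6467 bp (rank 3) covered both of them. BraGFP and EoV5 had a peak at each: 2808 bp (rank 77) over the outer and 1389 bp over the inner start in BraGFP, and 5013 bp (rank 40) and 1617 bp in EoV5. The EoGFP peak ran from -0.503 to 5.64 kb and the EoVP16 peak from -0.834 to 5.63 kb. Of the 6762 bp spanned by all lists, EoGFP covered 90.9%, BraGFP 62.1%, EoV5 98.0% and EoVP16 95.6%.

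The position of the Tle3 and Sin3a peaks over starts was frequent among wide peaks of these lists. Of the widest 1% of EoGFP peaks, 57.1% covered a RefSeq start, against 21.3% of all EoGFP peaks. In EoVP16 these shares were 61.0% and 23.4%. A pair of starts or more lay under 16.3% of the widest EoGFP peaks and under 4.03% of all EoGFP peaks. The widest EoGFP peaks measured at least 2702 bp, against a median of 871 bp. A longer stretch takes in more starts by its length alone. Whether wide peaks lay over starts more often than their length gives was not tested.

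The height of the Sin3a peaks relative to their list differed between EoV5 and EoVP16. In EoV5 the wide peak over the outer start had its summit at 1.24 kb, a pileup of 77 (60.8 to 96.2) and a fold of 11.1, below the list medians of 99 and 14.1, and 71.3% of EoV5 peaks were as tall or taller. Only 12.1% of the widest 1% of EoV5 peaks were no taller. The separate EoV5 peak over the inner start had a pileup of 97 (78.7 to 118), an interval that overlaps that of the wide peak, with its summit at 5.13 kb. In EoVP16 the summit lay at 5.11 kb, also past the inner start, with a pileup of 81 (64.3 to 101) and a fold of 13.7, above the list median of 54 and in the top 18.7%. Among the widest 1% of EoVP16 peaks, 48.1% were no taller.

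The rest of the Sin3a window held peaks over the starts of neighbours and elsewhere. The starts of Man2c1 and Neil1 lay under a peak in all 4 lists, and that of Commd4 under a peak in BraGFP and EoVP16. A site at about 91.3 kb, over no RefSeq start, was called in EoGFP (1502 bp), BraGFP (1491 bp) and EoVP16 (427 bp) and not in EoV5. Inside Sin3a, a peak about 10.3 kb from the outer start was called in BraGFP and EoVP16 only, with a pileup of 42 in EoVP16. Among all peaks, EoV5 peaks overlapped 79.6% of EoGFP, 29.4% of BraGFP and 56.9% of EoVP16 peaks. EoGFP peaks overlapped 29.3% of all BraGFP and 57.9% of all EoVP16 peaks. The fourth neighbour, Ptpn9, lies upstream, and its 50 kb window also takes in the broad Sin3a peaks.

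Sin3b (chr8:72723270-72758203, plus strand) had no EoGFP or BraGFP peak within 50 kb. The nearest lay 151.6 kb away in EoGFP and 68.2 kb in BraGFP. EoV5 and EoVP16 each had 2 peaks, between 43.3 and 46.1 kb upstream and inside the neighbouring gene Nwd1. Their pileups were 103 and 109 in EoV5 and 46 and 41 in EoVP16, a little above the median of 99 in EoV5 and below the median of 54 in EoVP16. The next peaks outside the window lay at 68.0 kb in both lists. At Tle2 the limit of the window mattered more, because a peak of each list lay between 50.3 and 51.1 kb away.

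Peaks of one list near the 6 genes often coincided with peaks of another, where overlap means at least 1 shared bp and intervals are 95% Wilson intervals. Of the 34 EoGFP peaks, 13 overlapped a BraGFP peak (38.2%, interval 23.9 to 55.0), against 27.1% of all EoGFP peaks. Of the 26 BraGFP peaks, 15 overlapped an EoGFP peak (57.7%, 38.9 to 74.5), against 29.3% of all BraGFP peaks. Of the 34 EoGFP peaks, 27 overlapped an EoV5 peak (79.4%, 63.2 to 89.7), next to 79.6% of all EoGFP peaks. Peaks around 1 gene share their surroundings, so these shares describe the 6 genes and are no test.

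Counted over all 4 lists, 12 of 34 EoGFP, 14 of 26 BraGFP, 12 of 37 EoV5 and 11 of 34 EoVP16 peaks had a partner in every other list. Over whole lists these shares were 20.1%, 21.6%, 15.6% and 16.5%. Peaks with no partner at all numbered 1 in EoGFP, 9 in BraGFP, 5 in EoV5 and 1 in EoVP16, where the shares over whole lists were 4.84%, 60.0%, 27.3% and 26.98%. At Sin3a, 3 of 4 EoGFP, 4 of 8 BraGFP, 4 of 4 EoV5 and 3 of 6 EoVP16 peaks were found in every list, while Tle2 had 1 such peak in each list.

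Other corepressor genes were read from a list of 56 genes, all found in the gene table. The list also holds 16 Groucho partner factors, which are transcription factors and are counted in the totals below. Peaks lay within 50 kb of 54 of them in EoGFP, 52 in BraGFP, 54 in EoV5 and 56 in EoVP16, beside 81.1%, 76.5%, 83% and 84.2% of all coding genes. A start was in the promoter table for 43. It was covered in 26 by EoGFP, 15 by BraGFP, 28 by EoV5 and 34 by EoVP16, and in all 4 lists in 12, where the shares over all genes with a start were 39.6%, 20.9%, 31.4%, 51.7% and 14.4%. A broad peak in all 4 lists was found at 1 of the 56 and at 0.548% of all coding genes. The gene was Hes7, one of the partner factors, a cyclic repressor of the segmentation clock that binds Groucho. Genes of the list with a broad peak numbered 6 in EoGFP, 4 in BraGFP, 12 in EoV5 and 7 in EoVP16, beside 3.87%, 3.01%, 4.3% and 4.14% of all coding genes.

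Within the Sin3 complex, 5 of 12 genes with a start were covered in all 4 lists: Rbbp4, a histone-binding subunit, Arid4b, Ing1, Ing2 and Fam60a. The share over all coding genes with a start was 14.4%. The widest EoGFP peaks of the group were near Fam60a, with 3098 bp, and Suds3, with 2470 bp. In the NCoR complex, 2 of 4 starts were covered in all 4 lists, at Ncor1, its scaffold, and Tbl1xr1. Its widest EoGFP peak was near Tbl1x, with 2030 bp.

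Among the CoREST and CtBP genes, 2 of 6 starts were covered in all 4 lists, at Rcor3 and Kdm1a, a histone demethylase. For this and the next groups too, the share over all coding genes with a start was 14.4%. The widest EoGFP peaks of the CoREST and CtBP group were near Rcor1 (1619 bp) and Ctbp2 (1444 bp). Among the genes listed under NuRD, 2 of 6 starts were covered in all 4 lists, at Gatad2a and Gatad2b. Each gene was counted in 1 group only, and Rbbp4, Rbbp7, Hdac1 and Hdac2 were listed under the Sin3 complex. The widest EoGFP peaks of the NuRD group were near Chd3, a remodelling ATPase, at 4669 bp, and Gatad2a at 2618 bp. Of the Groucho partner factors, 1 of 14 starts was covered in all 4 lists, that of Hhex, a homeobox repressor of the anterior endoderm, with a peak of 5192 bp in EoGFP and 1509 bp in BraGFP. The Hhex peak was the widest EoGFP peak near any of the 56 genes, against 6148 bp at Sin3a and 7112 bp at Tle3. The widest EoGFP peak near Hes7 measured 4531 bp. Of the Engrailed genes, En1 had 1 EoGFP, 1 BraGFP, 0 EoV5 and 2 EoVP16 peaks, and En2 had 3, 3, 4 and 3.

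The genes most like Tle3 in the log10 widths of their widest peaks over the 4 lists, among 15052 genes with a peak in each, were Dusp4 and Tnks, which share the same peaks, at a distance of 0.170. Their widths were 6132 bp in EoGFP, 3195 bp in BraGFP, 6028 bp in EoV5 and 6390 bp in EoVP16, and these peaks covered no start of either gene. Pcdh7 followed at 0.216 and then Sin3a itself with its neighbour Ptpn9 at 0.221. Ptpn9 takes the same 4 peaks as Sin3a and was left out of the comparison with it. Nearest to Sin3a among the other 15051 genes was Pcdh7 at 0.0467, with 6385, 2810, 4883 and 7127 bp, then Dusp4 and Tnks at 0.0979, Gse1 at 0.123 and Klf9 at 0.137. Sin3a was thus among the 5 nearest to Tle3, and Tle3 was not among the 5 nearest to Sin3a.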

How the data were processed

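Of the ChIP-seq data, the authors' peak lists for 4 constructs, on mm10, were used. Samples were grouped by construct and treatment from their titles. Input, H3K27ac and expression data, ATAC-seq, and libraries without doxycycline were not used here. The 6 genes, the list of 56 corepressor and partner factor genes and the choices below were chosen with earlier results of these data known.

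The submitters' processing notes list MACS2 (2.1.1.20160309.4), deepTools (3.0.2), Bowtie2 (2.3.4), bedtools (2.27.0), SAMtools (1.3.1) and Picard (1.56.0), with no roles or settings. The EoV5 and EoVP16 lists give 2 deposited values at each summit: a signal, which is the pileup in fragments, and a ratio, which is the fold over the caller's background. The deposited EoGFP and BraGFP lists hold positions only, whose first base may be off by 1 bp. Minimum pileups of 120 (EoGFP), 40 (BraGFP), 60 (EoV5) and 36 (EoVP16) come from the names of the deposited lists. How 2 libraries were joined into 1 list, and the control used, are not given in the sources used here.

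Python 3.11.15, pandas 2.3.3, numpy 2.4.6 and scipy 1.17.1 were used. Peaks on unplaced contigs (4, 7, 7 and 6) and repeated entries (12, 4, 46 and 26) were left out. Genes came from a RefSeq table of GRCm38.p6 with 21883 coding genes on 21 chromosomes, and strands and starts from its promoter table, which matched all 6 genes. Broad means the widest 1% of a list. Shares carry 95% Wilson intervals. The scripts were tested on simulated data. No genome or protein sequence was used here, so the planned protein comparison was not made.

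Genes named were the 6, the coding genes within 50 kb of them or under their widest peaks, the 2 genes of each corepressor group with the widest EoGFP peak, and the 5 genes nearest to Tle3 and to Sin3a in width. One gene that this rule names is not reported here. Rbbp4, Arid4b, Ing1, Ing2, Ncor1, Tbl1xr1, Rcor3, Kdm1a, Gatad2b, En1 and En2 were named after their values were seen. Alternatives covered windows of 10 and 100 kb, distance from the peak edge or from the start, the wider or taller 50% of each list, and an overlap of 50%.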

Additional observations from a re-analysis of the deposited data

How the results depend on the processing

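With a window of 10 kb in place of 50 kb, the 6 genes had 21 EoGFP, 14 BraGFP, 23 EoV5 and 17 EoVP16 peaks, and 65.2%, 53.0%, 62.2% and 71.1% of coding genes had a peak. With 100 kb, the coding genes with a peak were 87.2%, 85.3%, 89.9% and 89.6%. In the wider or taller 50% of each list, the 6 genes had 22 EoGFP, 17 BraGFP, 24 EoV5 and 20 EoVP16 peaks. Within 50 kb of a transcription start in place of the gene span, they had 20, 16, 24 and 22. These settings count fewer or more positions by their construction. The number of genes with a broad peak stayed at 2, 3, 3 and 3 with windows of 10 and 100 kb and with distances from the peak edge. An overlap of at least 50% of the shorter peak left the 3 overlap counts tried (EoGFP with BraGFP, EoGFP with EoV5, EoV5 with EoVP16) unchanged. Of 63 comparisons of a gene's widest peak under another window or distance, 58 gave the same width. These leave out Tle2 in BraGFP and Sin3b in EoV5 and EoVP16 at 10 kb, where no peak remained to compare. No paired analysis was possible because each construct has 1 peak list and its libraries have no separate values. With no replicate values and no read depth, a peak missing from a list cannot be told apart from one below its threshold.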
